A study of Mus musculus with 6 samples.

Results

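Mitochondria carry their own ribosomes, which translate the few mRNAs of the mitochondrial genome into subunits of the respiratory chain and the ATP synthase. The ribosomal RNAs come from the mitochondrial genome, whereas every protein of the particle is encoded in the nucleus, made in the cytosol and imported. Kidney tubules, and the proximal tubule above all, rely on mitochondrial respiration for solute transport. The genes described here are the protein-coding genes with the symbols Mrpl (large subunit) or Mrps (small subunit) followed by a number. There were 77 of them among 35275 genes in the deposited count table, 48 named Mrpl and 29 named Mrps, and the table describes all 77 as mitochondrial ribosomal proteins. The rule itself reads the symbol and the gene type.

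Polyadenylated RNA of whole kidneys was sequenced 28 days after ischaemia-reperfusion injury, an arrest of the blood supply followed by its return, in WT C57Bl/6 mice. In the severe group (3 libraries, numbered 13, 14 and 15) ischaemia had lasted 35 min, and in the mild group (3 libraries, numbered 7, 8 and 9) 20 min. All kidneys were injured, and uninjured kidneys were not analysed here. Sample titles carry separate K numbers, but the labels do not say that libraries came from separate mice. The p-values therefore reflect nothing beyond the spread among these libraries. How much of that spread is technical and how much lies between animals was not tested.

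The libraries held between 15240491 and 17730967 gene counts. Severe library 14 stood apart: its scaling factor (TMM, which sets libraries to a common level of the typical gene) was 1.17, against 0.974 and 1.04 in severe libraries 13 and 15 and between 0.943 and 0.945 in mild libraries. Kidney identity was clear from proximal tubule markers, with Slc34a1, a phosphate transporter, at 5100 ± 1672 CPM in severe and 7346 ± 539 CPM in mild kidneys (CPM is the count scaled to a common library size with TMM factors; SD, n = 3 each). Summed over 10 proximal tubule markers, levels lay between 13698 and 27592 CPM in severe libraries, all below the 31423 to 33926 CPM of mild libraries. Summed over 8 fibroblast and matrix markers they lay between 1429 and 4690 CPM in severe and between 657 and 831 CPM in mild libraries, and over 8 macrophage markers between 531 and 1037 CPM in severe and between 279 and 332 CPM in mild libraries. Podocyte markers lay between 381 and 448 CPM in severe and between 435 and 443 CPM in mild libraries. None of the members of these 4 lists was at 0 in all libraries. In bulk RNA, fewer cells of a type and less RNA per cell cannot be told apart, and the part of these shifts in the results below was not tested.

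Severe kidneys had slightly lower mRNA levels for most genes of the mitochondrial ribosome, but no single one passed the test. Of the 76 members with enough counts for a test, 72 had a log2 fold change (severe over mild) below 0, against 49.9% of all 14883 genes tested. The median over members was -0.20, with quartiles of -0.27 and -0.13, beside a median of 0.00019 over all genes. The values ran from -0.39 for Mrpl34 to 0.05 for Mrps18b. With the edgeR quasi-likelihood test and Benjamini-Hochberg adjustment over all genes, 0 members passed the threshold of 0.05 (lowest adjusted p = 0.112, for Mrps23), where the background was 0.00672% of genes called lower and 0.00672% called higher. At an unadjusted p under 0.05 edgeR gave 15 members lower and 0 higher, against 7.89% of all genes lower and 15.8% higher. DESeq2 called 0 members, against 0.914% of all genes lower, and had 13 members lower at an unadjusted p under 0.05, against 8.94% of all genes. Limma-voom called 0 members, against 0.00672% of all genes lower, and had 17 lower at an unadjusted p under 0.05, against 8.85% of all genes.

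All 3 severe libraries lay below all 3 mild libraries for 33 of the 76 members, and above them for 0. The same separation held for 16.1% of all genes on the lower side and 17.9% on the higher side. The 3 severe libraries were not alike. Relative to the mean of the mild libraries, the median member stood at -0.07 in severe library 13, -0.38 in library 14 and -0.18 in library 15 on the log2 scale. Severe library 14 had the lowest value of the 6 libraries for 67 members and lay below every mild library for 71. Severe library 13 lay below every mild library for 34 members and severe library 15 for 61. Such counts for single libraries were not made over all genes tested. They therefore have no background share and do not show that library 14 was lower for the members in particular. Mild libraries lay close together, with medians between -0.02 and 0.02.

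**Figure D1:**
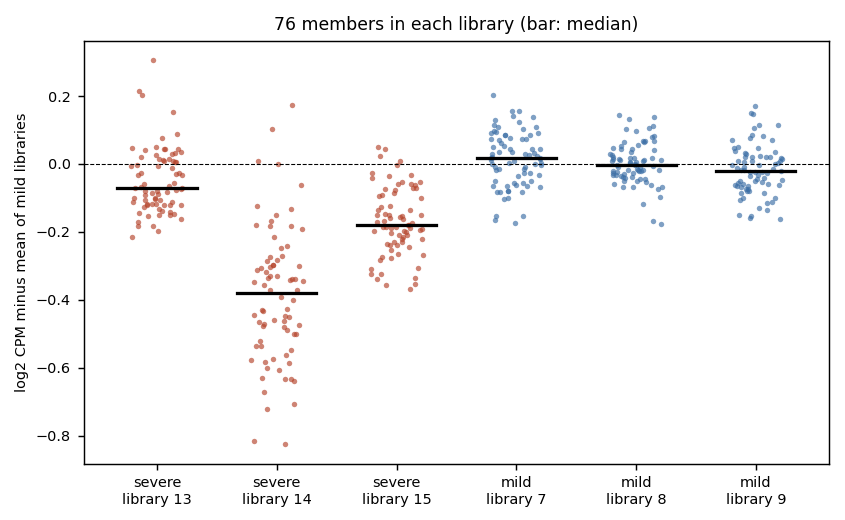
Level of each of the 76 tested members in each library, as log2 CPM minus the mean of the 3 mild libraries; points are genes and bars are medians. Severe library 14 is lowest, with a median of -0.38, severe library 15 lies at -0.18 and severe library 13 at -0.07, next to the mild libraries.

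The size of the difference and the number of members called rested on single severe libraries. Without library 14 the median over members was -0.11, with 68 of 76 below 0 and 0 called lower in edgeR, against 0.931% of all genes. At an unadjusted p under 0.05, 13 members were lower without library 14, against 9% of all genes. Without library 13, the severe library nearest the mild ones, the median was -0.28 and 17 members were lower with an adjusted p under 0.05 in edgeR (22.4% of members, against 7.74% of all genes called lower in that fit). The limma-voom fit that weights each library by its quality called 30 members lower (39.5% of members, against 15.7% of all genes) and 0 higher (against 18.2% of all genes), with a median of -0.17. All 17 members called without library 13 were among those 30, which is 56.7% of the 30. Without severe library 15, 0 members were called in edgeR (8 lower at an unadjusted p under 0.05, against 5.16% of all genes). Without mild library 7, 8 or 9, 0 members were called in edgeR, with 4, 3 and 7 lower at an unadjusted p under 0.05, against 2.88%, 3% and 3.05% of all genes.

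The scaling also matters for a shift of this size. Counts of the 77 members summed to 3248, 2520 and 2977 CPM in severe libraries 13, 14 and 15 and to 3400, 3378 and 3331 CPM in mild libraries 7, 8 and 9. The group means were 2915 ± 368 CPM in severe and 3369 ± 35.4 CPM in mild kidneys (SD, n = 3 each), a log2 ratio of -0.21. As a plain share of each library's total, the same counts were 0.316%, 0.294% and 0.311% in severe and 0.321%, 0.318% and 0.314% in mild libraries. The groups then overlapped, with severe library 13 above mild library 9. With library totals as the scaling the median over members was -0.0448 and 48 of 76 were below 0, but the median over all genes moved to 0.17 in that fit. Separated members then numbered 12 lower and 2 higher, against 6.61% of all genes lower and 29.2% higher. Relative to the median gene the members stood at -0.21 with library totals and at -0.20 with TMM.

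**Figure D2:**
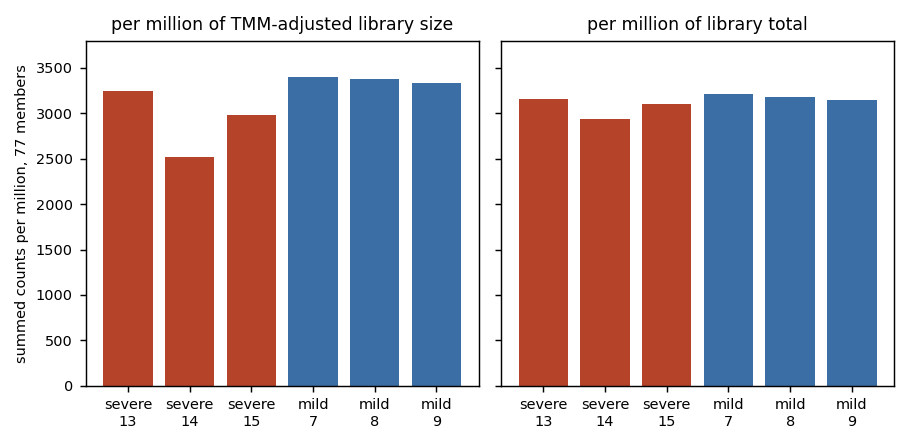
Summed counts of the 77 members in CPM after TMM scaling (left) and in CPM of the plain library total (right), by library. Severe library 14 is lowest in both, at 2520 and 2938 CPM, and the groups overlap only on the right.

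Small subunit. The small subunit binds the mRNA and holds the decoding centre. Placed as in structures of the human mitochondrial ribosome, 26 tested members belong to it, of which 24 were below 0 with a median log2 fold change of -0.23. Mrps23, a mitochondria-specific protein of the small subunit, had the smallest p of all members. Its level was 50.4, 39.2 and 45.2 CPM in severe libraries 13, 14 and 15, against 58.9, 59.6 and 54.9 CPM in mild libraries 7, 8 and 9. The groups did not overlap. Its log2 fold change was -0.36 ± 0.10 (SE), or 22.3% less in severe kidneys, with an edgeR adjusted p of 0.112. Mrps23 (ENSMUSG00000023723) lies on the plus strand of chromosome 11 from 88204388 to 88211507 (mm10). Mrps31, another mitochondria-specific protein of this subunit, had 27.8, 22.7 and 27.4 CPM in severe and 32.5, 31.1 and 31.0 CPM in mild libraries, again with no overlap (log2 fold change -0.28 ± 0.10, edgeR adjusted p = 0.156).

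Mrps12, whose bacterial counterpart lines the decoding centre, had 35.3, 25.7 and 33.6 CPM in severe and 35.7, 38.2 and 41.2 CPM in mild libraries. The groups were next to each other without overlap, with severe library 13 close to mild library 7 (log2 fold change -0.28 ± 0.13, edgeR adjusted p = 0.22). Mrps7, the counterpart of a bacterial protein that organises the head of the small subunit, had 78.3, 55.8 and 71.9 CPM in severe and 84.8, 83.5 and 85.6 CPM in mild libraries, with no overlap (-0.30 ± 0.12, edgeR adjusted p = 0.195). Mrps5, whose bacterial counterpart is known for mutations that change decoding accuracy, had 58.3, 39.5 and 49.6 CPM in severe and 59.8, 58.1 and 55.5 CPM in mild libraries. These groups overlapped, since severe library 13 lay above mild library 8 (-0.23 ± 0.13, edgeR adjusted p = 0.299). Mrps36 carries a small subunit symbol, but its human product is known as an adaptor of the 2-oxoglutarate dehydrogenase complex, an enzyme of the citric acid cycle. Its log2 fold change of -0.26 ± 0.11 lay (edgeR adjusted p = 0.211) inside the range of the ribosomal members.

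Large subunit. The large subunit forms the peptide bond and passes the new chain to the inner membrane. Of its 49 tested members, which include Mrps30 and Mrps18a by the position of their human products, 47 were below 0 with a median of -0.19. Mrpl28 had 59.5, 41.0 and 52.9 CPM in severe and 63.3, 67.5 and 70.3 CPM in mild libraries. Every severe library was below every mild one, with a fitted difference of -0.39 ± 0.13 on the log2 scale (edgeR adjusted p = 0.15). Mrpl39, a mitochondria-specific protein related in sequence to threonyl-tRNA synthetase, had 46.5, 36.4 and 40.1 CPM in severe and 53.1, 50.2 and 48.4 CPM in mild libraries. These groups did not overlap either (-0.30 ± 0.10, edgeR adjusted p = 0.149). Mrpl1 forms the mobile stalk beside the exit site for tRNA. It had 22.9, 19.8 and 21.6 CPM in severe and 25.02, 25.9 and 25.9 CPM in mild libraries (-0.26 ± 0.09, edgeR adjusted p = 0.15), with the smallest spread of these.

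Mrpl49 had 46.5, 37.0 and 41.5 CPM in severe and 50.8, 51.9 and 48.8 CPM in mild libraries, with no overlap (-0.28 ± 0.10, edgeR adjusted p = 0.154). Its locus shares 83 bases with Syvn1, on the other strand. Mrpl34 had the largest change by size, with 56.1, 37.0 and 55.8 CPM in severe and 65.1, 63.4 and 66.8 CPM in mild libraries. Severe library 14 lay far below the other severe libraries (-0.39 ± 0.15, edgeR adjusted p = 0.185). Mrpl12 forms the stalk that recruits translation factors, and in human cells it also binds the mitochondrial RNA polymerase. It had 60.9, 36.2 and 51.8 CPM in severe and 70.6, 63.0 and 59.2 CPM in mild libraries. Severe library 13 lay above mild library 9, so the groups overlapped (-0.37 ± 0.18, edgeR adjusted p = 0.234).

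Mrpl2 and Mrpl3 are counterparts of bacterial proteins that reach towards the peptidyl transferase centre. Mrpl3 had 43.6, 39.2 and 46.3 CPM in severe and 46.6, 47.6 and 48.2 CPM in mild libraries (-0.14 ± 0.08, edgeR adjusted p = 0.308). Mrpl2 had 74.7, 55.8 and 62.0 CPM in severe and 69.2, 75.8 and 74.6 CPM in mild libraries (-0.19 ± 0.11, edgeR adjusted p = 0.315). Mrpl3 was separated between the groups, whereas severe library 13 lay inside the mild range for Mrpl2. Mrpl11, at the base of the stalk, had 38.3, 29.99 and 30.4 CPM in severe and 36.7, 41.0 and 36.7 CPM in mild libraries (-0.21 ± 0.11, edgeR adjusted p = 0.274). Mrpl40, a mitochondria-specific protein, had 25.2, 23.5 and 23.6 CPM in severe and 24.0, 29.5 and 26.8 CPM in mild libraries (-0.15 ± 0.10, edgeR adjusted p = 0.349). The groups overlapped for both.

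**Figure D3:**
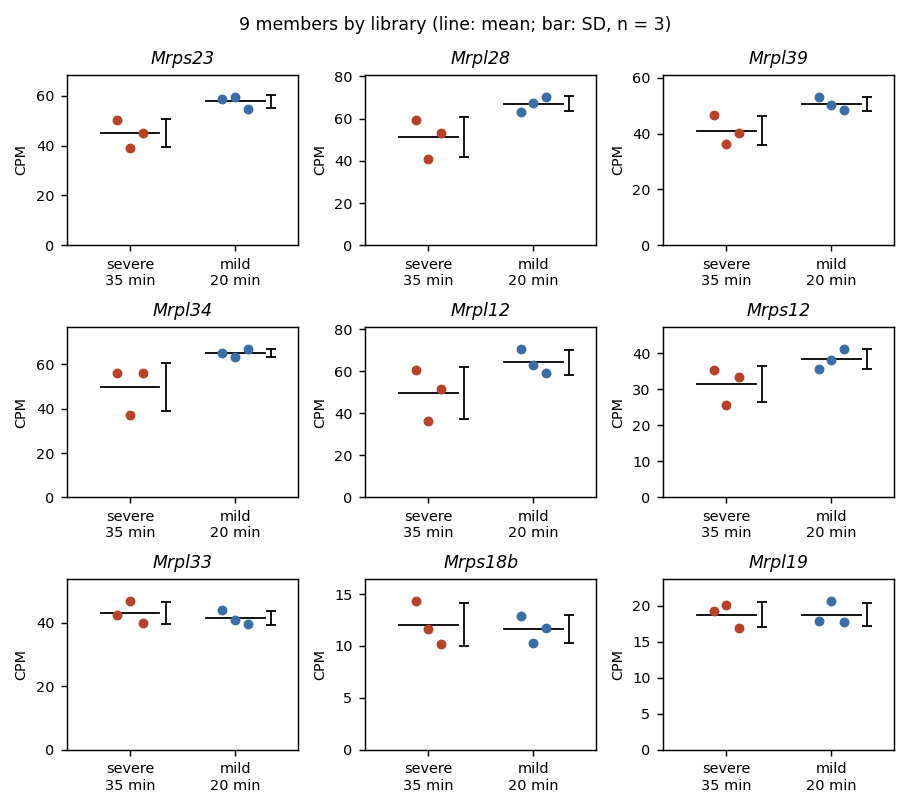
CPM of 9 members in each library, severe on the left and mild on the right; lines are means and bars SD (n = 3). Mrps23, Mrpl28, Mrpl39, Mrpl34 and Mrps12 do not overlap between the groups, Mrpl12 does, and Mrpl33, Mrps18b and Mrpl19 have near-equal means.

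A few members had near-equal levels in both groups. The 4 members with a log2 fold change above 0 were Mrpl33, Mrpl52, Mrps18b and Mrps18c, between 0.02 and 0.05, and all 4 had overlapping groups. Mrpl33 had 42.5, 46.7 and 39.9 CPM in severe and 44.0, 40.9 and 39.5 CPM in mild libraries, and severe library 14, lowest for most members, was the highest here. Its sign turned without severe library 14 (-0.0097) and with quality weights (-0.0379). The annotated locus of Mrpl33 shares sequence with Rbks, on the other strand, and Bre, on the same strand. Mrpl52 had 32.2, 31.2 and 32.3 CPM in severe and 33.2, 30.5 and 30.1 CPM in mild libraries. Mrpl19 had a fitted log2 fold change of -0.00013 ± 0.11, with 19.3, 20.1 and 16.8 CPM in severe and 17.9, 20.6 and 17.7 CPM in mild libraries.

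The paralogs Mrps18a, Mrps18b and Mrps18c descend from the bacterial protein S18. In human mitochondrial ribosomes Mrps18c takes the bacterial position, Mrps18b sits elsewhere on the small subunit and Mrps18a sits on the large one. Mrps18a had 50.7, 37.7 and 41.6 CPM in severe and 46.0, 51.6 and 45.7 CPM in mild libraries (-0.14 ± 0.12, edgeR adjusted p = 0.465). Mrps18b had 14.3, 11.6 and 10.2 CPM in severe and 12.9, 10.2 and 11.7 CPM in mild libraries (0.05 ± 0.16, edgeR adjusted p = 0.846). Mrps18c had 25.4, 23.0 and 24.8 CPM in severe and 26.2, 23.2 and 22.9 CPM in mild libraries (0.02 ± 0.09, edgeR adjusted p = 0.91). All 3 had overlapping groups, and the SEs are as large as the estimates or larger for Mrps18b and Mrps18c. Mrps18b had the fewest counts of all tested members, 1148 over the 6 libraries.

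**Figure D4:**
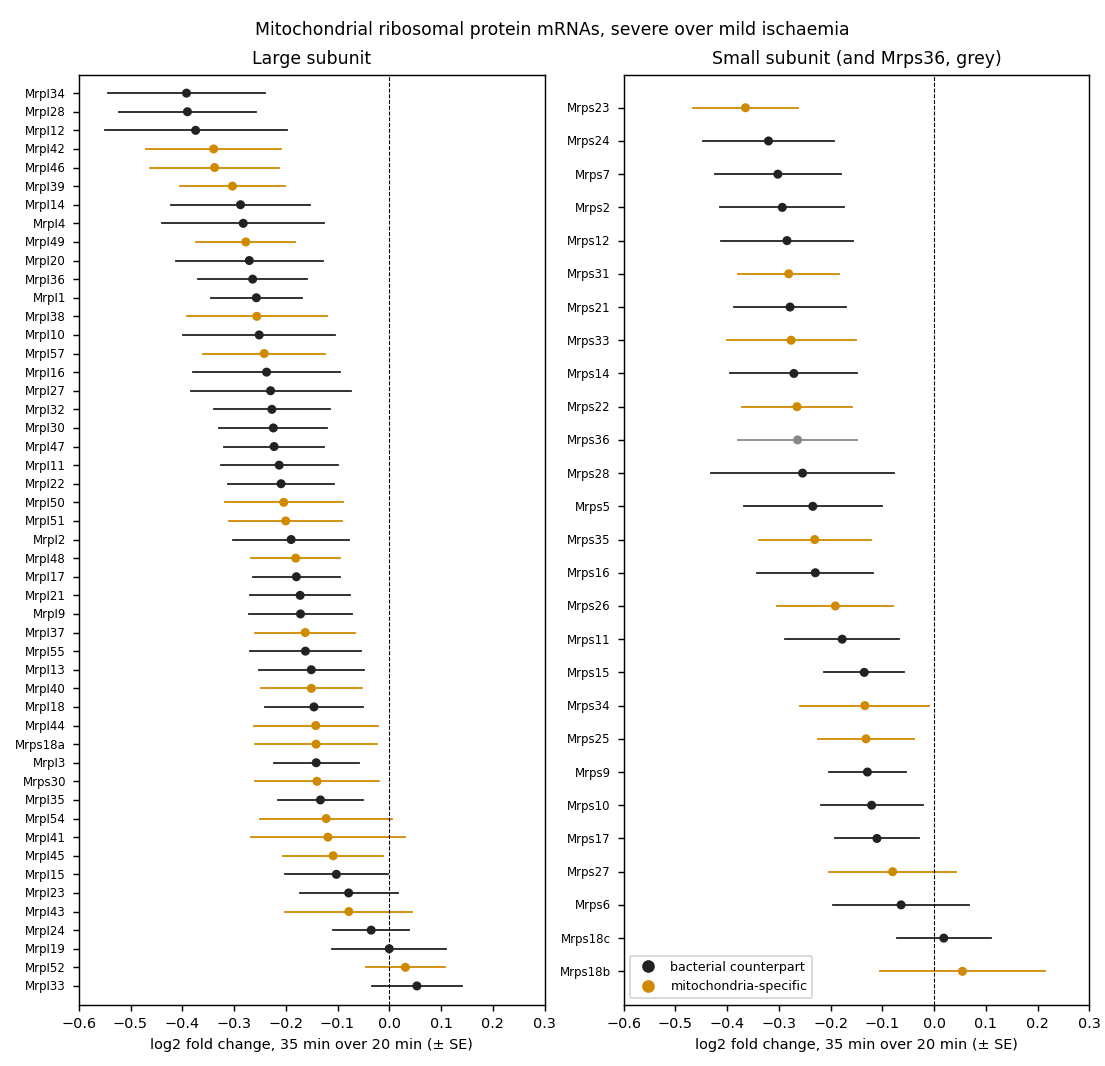
Log2 fold change (35 min over 20 min, ± SE) of the 76 tested members, ordered within the large and the small subunit; black points have a bacterial counterpart, orange ones are mitochondria-specific, and Mrps36 is grey. Most points lie between -0.4 and 0, and the 4 members above 0 are Mrpl33, Mrpl52, Mrps18b and Mrps18c. Mrps18a and Mrps18b are among the orange points.

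Medians by subunit and by origin were close to each other, and differences between them were not tested. The 46 tested members with a bacterial counterpart had a median log2 fold change of -0.22 and the 29 mitochondria-specific ones -0.18. Mrps18a and Mrps18b, which descend from S18 but do not take its position, were counted as mitochondria-specific. By subunit and origin together the medians were -0.21 over 30 large subunit members with a bacterial counterpart and -0.16 over 19 mitochondria-specific ones. In the small subunit they were -0.23 over 16 members with a counterpart and -0.21 over 10 mitochondria-specific ones. The SDs of log2 CPM within a group were larger in severe than in mild kidneys for 66 of 76 members (86.8%, against 72.8% of all genes). The median SD over members was 0.20 in severe and 0.0761 in mild kidneys. Over all genes it was 0.20 in severe and 0.104 in mild kidneys, so members differed from the typical gene in the mild group only.

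Levels per kb of the deposited gene length spread widely. Over all 6 libraries the mean level ran from 3.75 CPM per kb for Mrpl19 to 121 CPM per kb for Mrps21, with a median of 26.1, using the gene lengths of the deposited table. The median over all 13808 protein-coding genes tested was 7.29 CPM per kb. Mrps21, Mrpl42 (117 CPM per kb) and Mrpl34 (89.0) were the highest per length, and Mrps25 (5.12), Mrpl47 (4.85) and Mrpl19 the lowest. The deposited lengths were 714, 666 and 645 bases for Mrps21, Mrpl42 and Mrpl34. They were 6073, 3364 and 5000 bases for Mrps25, Mrpl47 and Mrpl19, so the order depends on this divisor as well as on the counts. At the high end, Mrps21 had 88.3, 67.2 and 79.7 CPM in severe and 94.5, 99.6 and 91.1 CPM in mild libraries, and Mrpl42 had 82.3, 56.4 and 68.4 CPM in severe and 90.1, 86.1 and 85.9 CPM in mild libraries. Both were separated between groups (log2 fold change -0.28 ± 0.11 and -0.34 ± 0.13). At the low end, Mrpl47, which corresponds to bacterial L29, had 15.5, 15.6 and 14.02 CPM in severe and 18.2, 17.1 and 17.4 CPM in mild libraries (-0.22 ± 0.10, edgeR adjusted p = 0.212). Mrps25 had 30.9, 27.3 and 30.8 CPM in severe and 34.8, 33.1 and 29.6 CPM in mild libraries, with overlap (-0.13 ± 0.09).

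The member without a test, Mrpl53, was listed at 0 counts in all 6 libraries. A count of 0 allows up to 3 counts per library, or 0.169 to 0.207 CPM. Its annotated span of 845 bases on chromosome 6 lies wholly inside Ccdc142 on the same strand, a gene with 508 counts. How reads on both genes were counted is not given in the sources used here, so this 0 is no measure of the Mrpl53 mRNA.

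Members are scattered over the genome, on 17 chromosomes with at most 10 on any (chromosome 11). The loci of 32 members overlap another gene of the table, 28 of them a gene on the other strand, and for 10 the overlapping gene had more counts than the member. The median log2 fold change was -0.23 over 45 members with no overlapping gene and -0.17 over 31 tested members with one. Mrpl46 and Mrps11 overlap each other head to head by 413 bases on chromosome 7. Mrpl46, on the minus strand, had 28.1, 20.1 and 25.8 CPM in severe and 31.5, 31.6 and 30.4 CPM in mild libraries (-0.34 ± 0.12, edgeR adjusted p = 0.171). Mrps11, on the plus strand, had 15.4, 13.3 and 15.7 CPM in severe and 17.9, 15.9 and 16.5 CPM in mild libraries (-0.18 ± 0.11, edgeR adjusted p = 0.332). Both were separated between the groups.

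Promoters of nuclear genes for mitochondrial proteins are known for sites of the factors NRF-1, GABP (an ETS factor) and YY1. RefSeq promoters (build GRCm38.p6, 250 bases before to 50 after the annotated start) matched 68 of the 77 members by symbol. The letters CCGGAAG, the core of ETS sites, stood on either strand in 25 of these 68 genes (36.8%), against 18.6% of 10379 tested protein-coding genes and 8.86% of all 32851 promoters in the table. The NRF-1 letters GCGCATGCG stood in 7 members (10.3%), against 3.86% of tested protein-coding genes and 1.75% of all promoters. The YY1 letters AAGATGGCG stood in 8 members (11.8%), against 3.30% and 1.40%. The E-box CACGTG, which Myc and related factors bind, stood in 5 members (7.35%), against 11.3% and 7.15%. Shares of members and of tested protein-coding genes count genes, whereas those of all promoters count promoters, so the units differ. Median GC content was 58.5% in member promoters, 60.3% in promoters of tested protein-coding genes and 52.7% in all. For each motif the member with the smallest p that holds it in the 100 bases before the start is shown, 5′ to 3′ on the gene's own strand, with the motifs in capitals. Mrpl17 holds the NRF-1 letters from base -11, counted back from the start. Mrpl34 holds the ETS core from base -37. Mrpl36 holds both an E-box from base -43 and the reverse complement of the YY1 letters from base -31.
Mrpl17: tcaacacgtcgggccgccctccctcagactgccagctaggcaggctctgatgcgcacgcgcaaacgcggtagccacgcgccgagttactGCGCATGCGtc
Mrpl34: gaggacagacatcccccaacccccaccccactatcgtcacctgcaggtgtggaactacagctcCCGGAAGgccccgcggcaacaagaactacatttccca
Mrpl36: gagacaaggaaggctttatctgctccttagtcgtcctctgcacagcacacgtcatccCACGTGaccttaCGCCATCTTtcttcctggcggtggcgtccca
The windows are chr7:105811088-105811187 (minus strand) for Mrpl17, chr8:71464826-71464925 (plus strand) for Mrpl34 and chr13:73330909-73331008 (plus strand) for Mrpl36. Mrpl17 had a log2 fold change of -0.18 ± 0.08, Mrpl34 of -0.39 ± 0.15 and Mrpl36 of -0.26 ± 0.10. A match is a description of these letters and not a measured site.

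The mRNAs of a list of regulators of mitochondrial gene expression, not limited to factors of the motifs above, stood on both sides of 0. Of 12 regulators, 6 were below 0 and 6 above, with a median of -0.0191, and 0 passed in edgeR. At an unadjusted p under 0.05 edgeR gave 2 lower (16.7%, against 7.89% of all genes) and 0 higher (against 15.8% of all genes). Groups did not overlap for 2 on the lower side (16.7%, close to the 16.1% of all genes) and 1 on the higher side (against 17.9% of all genes). Esrra, a nuclear receptor that drives mitochondrial genes together with PGC-1 coactivators, had 146, 96.3 and 138 CPM in severe and 179, 167 and 176 CPM in mild libraries, with no overlap (-0.46 ± 0.15, edgeR adjusted p = 0.149). Ppara, a nuclear receptor that regulates genes of fatty acid oxidation, stood at -0.42 ± 0.18 (edgeR adjusted p = 0.206). Gabpb1, a subunit of GABP, stood at 0.24 ± 0.11, with every severe library just above every mild one (edgeR adjusted p = 0.213). Nrf1, Gabpa and Yy1 stood at 0.03 ± 0.12, 0.09 ± 0.07 and -0.07 ± 0.08, and the coactivators Ppargc1a and Ppargc1b at -0.12 ± 0.11 and -0.58 ± 0.29; these were named after their values were seen.

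Most other genes of the machinery that makes mitochondrial proteins also had values below 0, and differences between these lists and the members were not tested. The 6 mitochondrial ribosomal proteins with other symbols (Dap3, Gadd45gip1, Chchd1, Ptcd3, Aurkaip1 and Ict1) were all below 0, with a median of -0.22 and 3 of 6 separated between groups (16.1% of all genes). Ptcd3, of the small subunit, had 39.8, 31.8 and 35.6 CPM in severe and 40.3, 46.6 and 42.2 CPM in mild libraries (-0.27 ± 0.10, edgeR adjusted p = 0.182). Among 16 tested translation factors 15 were below 0 (median -0.20). The smallest p were those of Tsfm at -0.33 ± 0.11 (edgeR adjusted p = 0.147) and its partner, the elongation factor Tufm, at -0.35 ± 0.14 (edgeR adjusted p = 0.192). Tufm had 164, 113 and 150 CPM in severe and 178, 185 and 181 CPM in mild libraries. Of 28 genes for ribosome assembly and rRNA modification, a list that also holds the nucleolar factor Bop1, 25 were below 0, with a median of -0.13. Mtg2, a GTPase of large subunit assembly, stood at -0.30 ± 0.11 (edgeR adjusted p = 0.165). In edgeR 0 genes of each of these lists passed the threshold, against 0.00672% of all genes lower and 0.00672% higher. Separated lower were 4 translation factors (25%) and 6 assembly genes (21.4%), against 16.1% of all genes, and 1 assembly gene was separated higher. At an unadjusted p under 0.05 edgeR gave 2 translation factors lower (12.5%) and 2 assembly genes lower (7.14%), against 7.89% of all genes. The assembly genes were thus near the share of all genes at that p.

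Of 22 genes for mitochondrial aminoacyl-tRNA synthetases and the related amidotransferase, 21 were below 0 with a median of -0.24, 12 were separated between groups (54.5%, against 16.1% of all genes) and 0 passed. At an unadjusted p under 0.05 edgeR gave 8 lower (36.4%, against 7.89% of all genes). Ears2, which charges the glutamate tRNA, had 10.5, 10.5 and 9.53 CPM in severe and 13.5, 13.1 and 13.7 CPM in mild libraries, the severe libraries lying close together (-0.40 ± 0.11, edgeR adjusted p = 0.108). Lars2, which charges the leucine tRNA, had 121, 96.0 and 180 CPM in severe and 238, 198 and 208 CPM in mild libraries (-0.70 ± 0.21, edgeR adjusted p = 0.128). Rars2 stood at -0.33 ± 0.09 (edgeR adjusted p = 0.117). Of 16 genes for mitochondrial transcription and the nucleoid, 14 were below 0 with a median of -0.14, and 0 passed in edgeR. In this list 4 were separated lower (25%, against 16.1% of all genes). At an unadjusted p under 0.05 edgeR gave 1 lower (6.25%, against 7.89% of all genes). The RNA polymerase Polrmt, the partner of Mrpl12, stood at -0.26 ± 0.11 (edgeR adjusted p = 0.211).

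The mRNAs that the ribosome translates and the nuclear genes for oxidative phosphorylation subunits had more negative medians than the members, a difference that was not tested. All 71 nuclear genes for oxidative phosphorylation subunits were below 0, with a median of -0.33 and 40 separated between groups (56.3%, against 16.1% of all genes). In edgeR 0 of them passed, and 12 were lower at an unadjusted p under 0.05 (16.9%, against 7.89% of all genes). Ndufb4 of complex I had 79.1, 61.1 and 73.1 CPM in severe and 99.4, 91.0 and 87.5 CPM in mild libraries (-0.38 ± 0.11, edgeR adjusted p = 0.114). All 12 tested mRNAs of the mitochondrial genome were below 0 with a median of -0.35, and 2 were separated (16.7%, close to the 16.1% of all genes). The mt-Nd3 mRNA stood at -0.88 ± 0.23 (edgeR adjusted p = 0.103), with mild library 9 far below the other mild libraries. Genes of the cytosolic ribosome lay mostly above 0, with 67 of 81 above 0 and a median of 0.09, and 0 passed in edgeR. At an unadjusted p under 0.05 edgeR gave 0 of them in either direction, against 7.89% of all genes lower and 15.8% higher. Of the 81, 19 were separated higher (against 17.9% of all genes) and 1 lower (1.23%, against 16.1% of all genes). The cytosolic ribosome genes with the smallest p were Rps28 (0.22 ± 0.10, edgeR adjusted p = 0.215), Rplp2 and Rpl39. Cytosolic ribosomal protein genes have many near-identical copies, so their counts are uncertain.

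**Figure D5:**
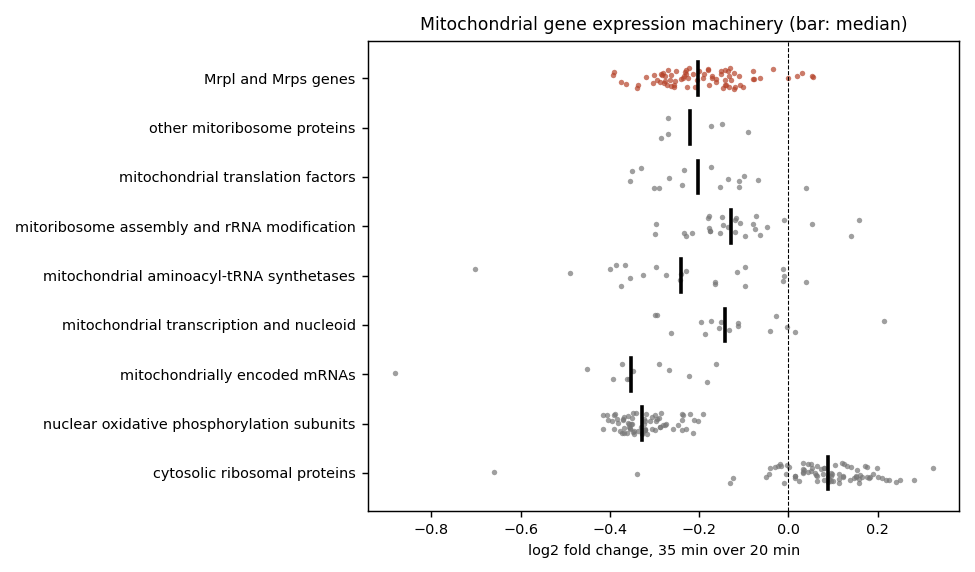
Log2 fold change (35 min over 20 min) of the Mrpl and Mrps genes and of 8 related lists; points are genes and bars are medians. The median is -0.20 for the Mrpl and Mrps genes, -0.33 for nuclear oxidative phosphorylation subunits, -0.35 for mitochondrially encoded mRNAs and 0.09 for cytosolic ribosomal proteins.

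Ratios within a library do not depend on its scaling. Summed CPM of the members was 13.9%, 17.1% and 14.9% of that of the nuclear oxidative phosphorylation subunits in severe libraries 13, 14 and 15, against 13.6%, 13.6% and 13.7% in mild libraries 7, 8 and 9. The groups did not overlap, and severe library 14 stood furthest out. Relative to the mitochondrially encoded mRNAs, the members came to 2.96%, 3.93% and 3.67% in severe and 2.99%, 3.06% and 3.00% in mild libraries, where severe library 13 was the lowest of all. Relative to the cytosolic ribosomal proteins they came to 17.0%, 12.01% and 15.5% in severe and 17.5%, 18.4% and 18.02% in mild libraries, again without overlap. In all 3 ratios severe library 13 was the severe library nearest the mild ones and library 14 the farthest. The proximal tubule markers had the same order, with summed levels of 27592, 13698 and 24881 CPM in severe libraries 13, 14 and 15. So did those of the loop of Henle and distal tubule (7497, 4498 and 6902 CPM) and of the collecting duct. Fibroblast and matrix markers (1429, 4690 and 2419 CPM) and macrophage markers (531, 1037 and 644 CPM) had it too, above the mild libraries. Podocyte, endothelium and T and B lymphocyte markers did not. The part of any of these markers in the ratios was not tested.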

How the data were processed

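The deposited table holds raw read counts per Ensembl gene, and the deposited gene length column is in bases. NEBNext Ultra libraries were made from poly-T selected, DNase-treated TRIzol RNA, per the labels' protocols. Per the submitters' processing notes, the tools were HTSeq 0.6.1, TopHat2 2.0.12 and Bowtie2 2.2.3, on build mm10. The sources used here give no roles, counting mode, strand setting or annotation release, so reads of overlapping genes cannot be told apart.

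Column names give the minutes of ischaemia, and their library numbers match no sample title, so columns were unpaired replicates of their group. No library was a repeat of another (chi-square per degree of freedom 14.2 to 70.0 between severe and 3.67 to 5.34 between mild libraries). Genes were filtered with filterByExpr, scaled by TMM and tested by quasi-likelihood in edgeR 4.0.16 under R 4.3.3, with robust dispersion, adjusted by Benjamini-Hochberg over 14883 genes. Each SE is the absolute log2 fold change over the square root of the F statistic. CPM values use TMM-adjusted library sizes. Tested members had 166 to 1703 counts per library. The pipeline was checked on simulated counts. The changes planted there were larger than that of any member, so the check does not cover changes of the members' size.

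Members and lists were chosen with earlier results of these data known, and subunits were assigned by hand after values were seen. Members described one by one are those with the smallest p in each direction, the largest changes, the highest and lowest levels per kb, and anchors by role. From each other list the 3 genes with the smallest p were eligible. Mrpl36, Mrpl17, Mrpl46, Mrps11 and Mrps36 were named for sequence, position or role. Alternatives were scaling by library totals, RLE or upper quartile, 2 other filters, DESeq2 1.42.0, limma-voom 3.58.1 with and without quality weights, non-robust dispersion, removal of mitochondrial and dominant genes, and each library left out. A protein table was not used here.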

Additional observations from a re-analysis of the deposited data

How the results depend on the processing

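No paired analysis was possible because the groups share no replicate numbers. Over all genes tested, 2 passed with the edgeR test as described, 1 with library totals, 146 without a low-count filter, 1160 with DESeq2 and 5041 with quality weights; leaving out severe libraries 13, 14 and 15 gave 3269, 501 and 1, and leaving out mild library 7, 8 or 9 gave 0 (2196, 2137 and 2345 at an unadjusted p under 0.05). Members lower past the threshold numbered 0, but 30 with quality weights and 0 to 17 with single libraries left out. Members separated between the groups numbered 33, but 34 with RLE, 24 with upper-quartile scaling and 14 (12 lower, 2 higher) with library totals. The share of all genes separated on the lower side was 16.1%, 17.0% with RLE, 13.6% with upper-quartile scaling and 6.61% with library totals. With single libraries left out separated members numbered 33 to 59, where separation is easier for every gene: 59 stood without severe library 13, beside 26.8% of all genes, and between 18.9% and 19.9% of all genes were separated lower with any other library left out. Of the 40 without mild library 7, 1 was higher. With library totals the members' median was -0.0448 and the log2 ratio of summed CPM -0.0507, each closer to 0 by more than the replicate SD. The median stayed below 0 in all 16 other settings, between -0.28 and -0.0448, and was -0.19 and -0.23 for the large and small subunit by structure.

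With library totals 24 of 76 members turned sign, with quality weights 4, and with single libraries left out 0 to 6. Values follow for the 25 members followed through all settings, where they turned. Mrpl19 stood at 0.0327 with upper-quartile scaling, 0.17 with library totals, 0.00294 with a minimum of 1 CPM, and between -0.0534 and 0.0812 with single libraries left out. With library totals Mrps25 stood at 0.0324, Mrpl3 at 0.0231, Mrps18a at 0.0162 and Mrpl40 at 0.0163. With quality weights Mrpl33 stood at -0.0379 and Mrps18b at -0.11. With single libraries left out, Mrpl33 lay between -0.00968 and 0.10, Mrps18b between -0.0776 and 0.16 and Mrps18c between -0.0103 and 0.0874. The causes were not tested.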

Other observations

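The table also holds 4 pseudogenes of these families, which were no members. Mrpl23-ps1 had 32, 25 and 15 counts in severe libraries 13, 14 and 15 and 11, 8 and 8 counts in mild libraries 7, 8 and 9. Its parent symbol Mrpl23 had a log2 fold change of -0.08 ± 0.09. The other pseudogenes had between 0 and 8 counts in any library.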
